A study of Mus musculus with 48 samples.

Results

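Antimicrobial defence genes of mouse skin were followed through 14 days of treatment with inhibitors of DGAT1, the enzyme that completes triglyceride synthesis. The set was defined by name and holds 10 genes: the beta-defensins Defb1, Defb3, Defb6 and Defb14, the cathelicidin Camp, the siderophore-binding lipocalin Lcn2, the peptidoglycan recognition proteins Pglyrp1, Pglyrp3 and Pglyrp4, and the secreted protease inhibitor Slpi. Of these, 9 had a probeset, 1 each, among the 38385 probesets of the array, and all 9 passed the filter on low values that left 28789 for testing. Slpi was not named by any probeset, so its expression is not analysed here. Beta-defensins and cathelicidin are short cationic peptides, released by keratinocytes and other epithelial cells, that disrupt microbial membranes. Lipocalin 2 holds back bacterial growth by binding the siderophores with which bacteria collect iron, and the mammalian peptidoglycan recognition proteins are secreted proteins that bind the bacterial cell wall and kill bacteria. In skin these genes are known as part of the epithelial barrier and are raised by wounding, by microbes and by cytokines of inflamed skin.

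The 48 samples came from male C57BL/6 mice made obese on a high-fat diet, with a labelled age of 8 weeks, that were dosed by mouth for 14 days with vehicle (methylcellulose) or a compound. Study 1 held 8 mice each on vehicle, Cpd1 and Cpd2, Study 2 held 4 mice each on vehicle, Cpd2 and Cpd6, and Study 4 held 4 mice each on vehicle, Cpd6 and Cpd18. Cpd2 and Cpd6 are the skin-positive compounds of the study, which produced sebaceous gland atrophy, and Cpd1 and Cpd18 are the skin-negative ones. Cpd2, Cpd6 and Cpd18 were given at 30 mg/kg per the methods, and the dose of Cpd1 in these arrays was not settled by the sources used here, so Cpd1 was compared with its vehicle alone. The labels name dorsal skin, whereas the methods name dorsal and/or ventral biopsies. Each mouse gave 1 array, and values are log2 intensities. Array medians lay between 4.72 and 4.94. A difference was called at an adjusted p under 0.05 in limma, fitted within each study over all tested probesets. In whole skin, fewer cells of a type and less RNA per cell cannot be told apart. Markers of differentiated keratinocytes averaged 9.22 to 10.63 over the 48 arrays, as the label of skin requires, and markers of skeletal muscle, which lies under the dermis, averaged 10.32 to 12.42 on all arrays but 4. Those 4 were Cpd2 mice of Study 1, with muscle averages of 6.01 to 8.54.

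Defb1, a beta-defensin that epithelia make without stimulation, and Defb6, a beta-defensin known from epithelia and skeletal muscle, rose with Cpd2 in Studies 1 and 2 and with Cpd6 in the latter. Both were among the probesets the study chose on the mice of Studies 1 and 2, so these comparisons are not independent evidence of their direction, and the mice of Study 4 were not used in that choice. The choice also required little difference between Cpd1 and vehicle, so the Cpd1 results of both genes are not independent evidence either. In Study 1 the log2 intensity of Defb1 had a lowest, median and highest value of 10.34, 10.94 and 11.08 with vehicle, 10.45, 10.74 and 10.93 with Cpd1, and 11.35, 11.63 and 11.91 with Cpd2. All 8 Cpd2 mice lay above all other mice of the study. The log2 difference of Cpd2 from vehicle was 0.73 (SE 0.09, 1.66-fold, adjusted p = 8.319e-06 in limma), and that of Cpd1 was -0.16 (SE 0.09, adjusted p = 0.453).

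In Study 2 the Defb1 levels of the 4 vehicle mice were 11.18, 10.51, 10.64 and 10.76. The Cpd2 mice gave 11.40, 11.65, 11.79 and 11.45, and the Cpd6 mice gave 11.44, 11.65, 11.40 and 11.66. Neither treated group overlapped the vehicle group, in which replicate 1 stood above the other 3 mice. Defb1 rose by 0.80 with Cpd2 (SE 0.13, 1.74-fold, adjusted p = 0.0241 in limma) and by 0.76 with Cpd6 (SE 0.13, 1.70-fold, adjusted p = 0.0184). The call was lost in 5 of the 8 fits that left out 1 mouse with Cpd2 and in 4 of 8 with Cpd6. Both compounds were given at the same dose, and Defb1 differed between them by 0.04 (95% confidence interval -0.24 to 0.32). In Study 4 the vehicle mice gave 10.70, 10.54, 10.79 and 10.97, the Cpd18 mice 10.98, 10.86, 10.45 and 10.58, and the Cpd6 mice 11.22, 11.16, 11.10 and 10.92. The lowest Cpd6 mouse fell within the range of both other groups. The log2 difference of Cpd6 from vehicle was 0.35 (SE 0.12, 1.27-fold, adjusted p = 0.0655 in limma) and did not pass the threshold. Cpd18 differed from vehicle by -0.03 (95% confidence interval -0.28 to 0.21).

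**Figure D1:**
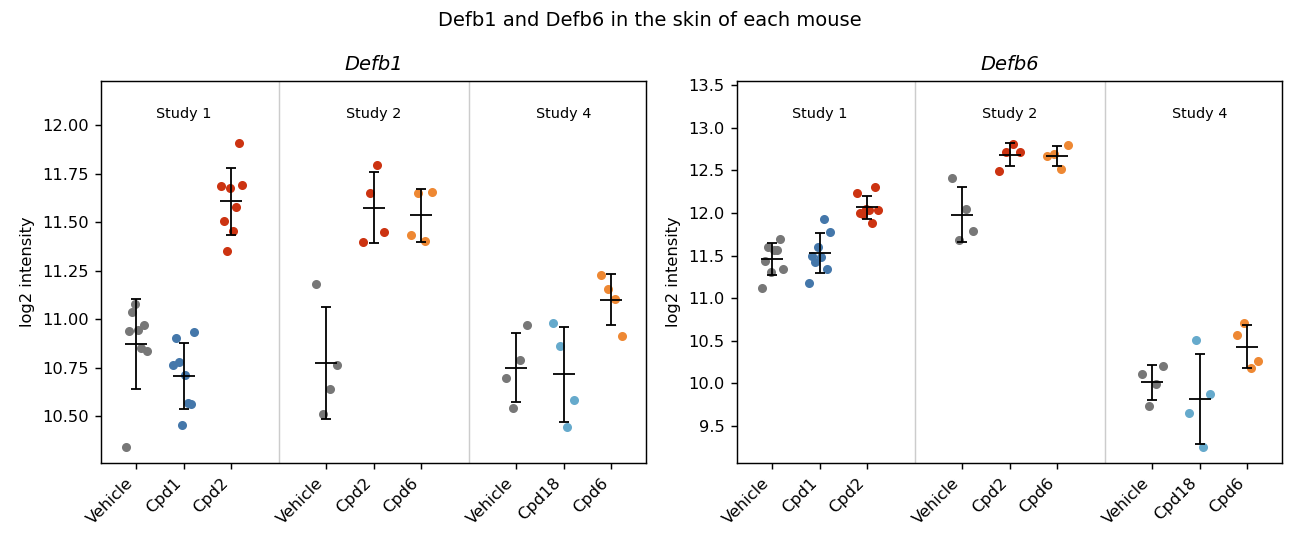
Log2 intensity of Defb1 and Defb6 (vertical axes) in each mouse, by treatment and study, where each point is 1 mouse and the bars are the mean and SD of a group of 8 (Study 1) or 4 mice. The Cpd2 and Cpd6 mice of Studies 1 and 2 lie above all vehicle mice of their study for both genes, while in Study 4 the Cpd6 mice overlap the vehicle mice.

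For Defb6, the lowest, median and highest values in Study 1 were 11.12, 11.50 and 11.70 with vehicle, 11.17, 11.49 and 11.93 with Cpd1, and 11.88, 12.04 and 12.31 with Cpd2. The Cpd2 group lay above the vehicle group and met the highest Cpd1 mouse. Defb6 rose by 0.61 with Cpd2 (SE 0.09, 1.53-fold, adjusted p = 6.129e-05 in limma) and differed by 0.07 with Cpd1 (SE 0.09, adjusted p = 0.779). In Study 2 the 4 vehicle mice gave 12.41, 11.68, 12.04 and 11.79, the Cpd2 mice 12.49, 12.71, 12.81 and 12.72, and the Cpd6 mice 12.67, 12.70, 12.52 and 12.80. The groups again did not overlap, although vehicle replicate 1 came close to the lowest Cpd2 mouse. Defb6 rose by 0.71 with Cpd2 (SE 0.13, 1.63-fold, adjusted p = 0.0486 in limma) and by 0.69 with Cpd6 (SE 0.13, 1.61-fold, adjusted p = 0.0284). Each of these calls was lost in 7 of the 8 fits that left out 1 mouse, all but that without vehicle replicate 1. The difference between the compounds was 0.01 (95% confidence interval -0.26 to 0.29).

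In Study 4 Defb6 was dimmer in every group than in the other studies. The vehicle mice gave 10.10, 9.73, 9.99 and 10.21, the Cpd18 mice 9.65, 10.51, 9.24 and 9.87, and the Cpd6 mice 10.57, 10.71, 10.18 and 10.26. The Cpd6 and vehicle groups overlapped in 1 mouse each, and the Cpd18 group spanned the vehicle group. Defb6 differed from vehicle by 0.42 with Cpd6 (SE 0.20, adjusted p = 0.196 in limma) and by -0.19 with Cpd18 (SE 0.20, adjusted p = 0.845). Between Cpd6 and Cpd18, at the same dose, Defb6 differed by 0.61 (95% confidence interval 0.18 to 1.05, adjusted p = 0.248) and Defb1 by 0.38 (0.14 to 0.63, adjusted p = 0.198). Without replicate 2 of Cpd18, the highest mouse of its group, the Defb6 difference was 0.84 (adjusted p = 0.0338). That was the 1 call among the 8 fits that left out 1 mouse. Over those fits the Defb6 difference ran from 0.42 to 0.84 (highest adjusted p = 0.4847). The vehicle means of Defb6 were 11.45 ± 0.19 (SD, n = 8) in Study 1, 11.98 ± 0.32 (SD, n = 4) in Study 2 and 10.01 ± 0.21 (SD, n = 4) in Study 4, set side by side without a test since the studies are separate experiments. Those of Defb1 were 10.87 ± 0.23, 10.77 ± 0.29 and 10.75 ± 0.18 and differed by less than the spread between mice.

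Defb14, the mouse counterpart of an inducible human skin defensin, rose with Cpd2 in Study 1 and with Cpd6 in Study 2. In Study 1 its lowest, median and highest values were 4.54, 5.18 and 5.53 with vehicle, 4.71, 5.27 and 5.86 with Cpd1, and 5.10, 5.90 and 6.29 with Cpd2. The lowest Cpd2 mice lay within the vehicle range. The difference for Cpd2 was 0.69 (SE 0.18, 1.62-fold, adjusted p = 0.0114 in limma). In Study 2 the vehicle mice gave 6.01, 5.59, 5.12 and 5.80, the Cpd2 mice 5.88, 6.25, 5.76 and 6.72, and the Cpd6 mice 7.29, 6.99, 6.98 and 6.91. The Cpd6 mice stood above every mouse of both other groups. Defb14 rose by 1.41 with Cpd6 (SE 0.22, 2.66-fold, adjusted p = 0.0110 in limma), and the difference of 0.52 with Cpd2 (SE 0.22, adjusted p = 0.617) was not called. The difference between the compounds themselves was -0.89 for Cpd2 minus Cpd6 (95% confidence interval -1.37 to -0.41, adjusted p = 0.301), with the groups apart.

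In Study 4 Defb14 gave 6.21, 5.66, 5.81 and 6.18 with vehicle, 4.90, 5.95, 5.28 and 6.00 with Cpd18, and 5.33, 6.37, 5.73 and 5.99 with Cpd6. The 3 groups overlapped, and Cpd6 differed from vehicle by -0.10 (95% confidence interval -0.65 to 0.44, adjusted p = 0.829 in limma). The difference between the Cpd6 effects of Study 2 and Study 4, fitted over all 48 arrays, was 1.51 (SE 0.37, adjusted p = 0.128), and it was not called. When the arrays were weighted by their quality the difference was 1.73 (adjusted p = 0.0031).

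Defb3, an inducible beta-defensin, was dim, with all mice between 2.44 and 5.60, and none of its differences was called. With Cpd2 in Study 2 the mice gave 4.95, 5.41, 5.60 and 4.37 against 4.24, 3.30, 4.35 and 4.97 with vehicle, and the groups overlapped. The difference was 0.87 (SE 0.35, adjusted p = 0.572 in limma) there, 0.39 in Study 1 (SE 0.19, adjusted p = 0.196) and 0.21 for Cpd6 in Study 2 (SE 0.35, adjusted p = 0.883). In Study 4 the value for Cpd6 lay on the other side, at -0.75 (SE 0.35, adjusted p = 0.185), with 2.71, 3.51, 2.75 and 3.27 in the Cpd6 mice and 4.01, 2.84, 4.08 and 4.31 in the vehicle mice. Vehicle replicate 2 was the low mouse, and without it the difference was -1.07 (adjusted p = 0.0450). That was the 1 call among the 8 fits that left out 1 mouse. Over those fits the difference ran from -1.07 to -0.58 (highest adjusted p = 0.3897).

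Defb6 and Defb3 lie near each other on chromosome 8, with Defb46 and Defb5 between them in the RefSeq annotation, and they differ in the calls above. The 250 bases before their annotated start sites (RefSeq, GRCm38.p6, both on the plus strand) are printed to show how alike these windows are, with the 9 letters TATATAAGG, a TATA box, in capitals. Defb6 is taken from chr8:19225228-19225477 and Defb3 from chr8:19293111-19293360.
Defb6: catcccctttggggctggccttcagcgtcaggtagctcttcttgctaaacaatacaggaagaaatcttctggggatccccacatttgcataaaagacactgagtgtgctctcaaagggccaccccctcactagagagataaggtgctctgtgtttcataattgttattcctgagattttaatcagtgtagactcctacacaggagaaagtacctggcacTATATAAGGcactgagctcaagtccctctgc
Defb3: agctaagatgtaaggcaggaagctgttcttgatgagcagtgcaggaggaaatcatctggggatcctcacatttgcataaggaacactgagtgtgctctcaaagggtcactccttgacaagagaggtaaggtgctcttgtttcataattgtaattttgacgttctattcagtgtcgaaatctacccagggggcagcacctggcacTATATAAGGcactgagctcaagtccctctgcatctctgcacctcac

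In a global alignment of the windows, 192 of 235 aligned bases were identical, which is 72.5% of an alignment of 265 positions. The other pairs among the 6 members with a RefSeq window (Camp, Defb3, Defb6, Lcn2, Pglyrp1 and Slpi) shared 42.9% to 48.9%. TATATAAGG began 31 bases before the Defb6 start and 46 bases before the Defb3 start, and on either strand it occurred in 0.28% of the 32851 windows of the table. An NF-kB-like motif (GGG, any 5 bases, then CC), searched on both strands, matched in 45.8% of all windows. In Defb6 they began 240, 180, 135 and 134 bases before the start, the last pair overlapping, and in Defb3 148 and 62 bases before it. Lcn2 held 1 match at 102 bases and Pglyrp1 1 match at 93 bases before the start. TGANTCA (AP-1) and TTCNNNGAA (STAT), present in 6.75% and 7.02% of all windows, were not among the letters of the 6 windows. The matches describe letters and were not tested as binding sites.

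The lipocalin Lcn2 was higher with Cpd2 in Study 1. Its lowest, median and highest values were 7.22, 7.37 and 7.70 with vehicle, 7.03, 7.52 and 7.89 with Cpd1, and 7.83, 8.05 and 8.98 with Cpd2. All 8 Cpd2 mice lay above all 8 vehicle mice, and Lcn2 rose by 0.87 (SE 0.15, 1.82-fold, adjusted p = 0.000212 in limma). In Study 2 the vehicle mice gave 7.75, 7.85, 7.90 and 7.47, the Cpd2 mice 7.99, 8.06, 8.38 and 8.86, and the Cpd6 mice 8.19, 8.29, 7.88 and 8.16. The Cpd2 group lay above the vehicle group and the Cpd6 group met it at 1 mouse. The differences were 0.58 with Cpd2 (SE 0.18, adjusted p = 0.407) and 0.39 with Cpd6 (SE 0.18, adjusted p = 0.406), neither called. In Study 4 the values spread widely, with 7.23, 7.20, 8.07 and 7.17 for vehicle, 8.60, 6.95, 6.95 and 7.86 for Cpd18, and 8.24, 8.15, 7.56 and 7.71 for Cpd6. Vehicle replicate 3 stood well above its group, and Cpd6 differed from vehicle by 0.50 (SE 0.32, adjusted p = 0.333).

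Camp, the precursor of the cathelicidin peptide, had group means between 4.02 and 4.30 and gave differences between -0.21 and 0.02 from vehicle in all 6 comparisons, none called. Camp was dim, with those means under all array medians (4.72 to 4.94). In Study 1 the difference with Cpd2 was 0.0008 (95% confidence interval -0.24 to 0.24). Camp, Lcn2 and Pglyrp1 are also products of neutrophil granules, so neutrophil markers are given beside them. Of 14 such markers 10 were tested, and the defining genes Elane, Cxcr2 and Mmp8 lay under the filter. With Cpd2 in Study 1, 1 of the 10 was called higher and 2 lower (7.09% and 6.0% of all probesets). The averages of the 10 markers ran from 4.85 to 5.62 in Cpd2 mice and from 5.44 to 5.82 in vehicle mice. In Study 2 those averages ran from 5.14 to 5.34 with Cpd2, from 4.86 to 5.39 with Cpd6 and from 5.33 to 5.84 with vehicle. The part of neutrophils in the Lcn2 values was not tested.

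The peptidoglycan recognition proteins Pglyrp3 and Pglyrp4, which are made by keratinocytes and lie together on chromosome 3, were higher with Cpd2 in Study 1. For Pglyrp3 the lowest, median and highest values were 3.04, 3.61 and 4.06 with vehicle, 2.42, 3.55 and 4.05 with Cpd1, and 3.53, 4.88 and 5.22 with Cpd2. Only the lowest Cpd2 mouse fell below the highest vehicle mouse, and Pglyrp3 rose by 1.10 (SE 0.23, 2.15-fold, adjusted p = 0.0019 in limma). Pglyrp3 was dim, with group means from 3.50 to 4.67, under all array medians (4.72 to 4.94). For Pglyrp4 the values were 4.62, 5.64 and 5.98 with vehicle, 5.09, 6.17 and 6.54 with Cpd1, and 5.81, 6.16 and 6.78 with Cpd2. The groups overlapped more for Pglyrp4, whose difference was 0.64 (SE 0.21, 1.56-fold, adjusted p = 0.0401). That call was lost in 8 of the 16 fits that left out 1 mouse.

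In Study 2 Pglyrp3 gave 4.19, 3.36, 3.51 and 3.49 with vehicle, 4.48, 3.97, 4.43 and 4.32 with Cpd2, and 4.38, 4.45, 4.13 and 4.58 with Cpd6. Vehicle replicate 1 alone reached the range of the treated mice. The differences were 0.66 with Cpd2 (SE 0.20, adjusted p = 0.412 in limma) and 0.75 with Cpd6 (SE 0.20, adjusted p = 0.132). Without vehicle replicate 1 they were 0.85 (adjusted p = 0.0494) and 0.93 (adjusted p = 0.0170). With each compound that was the 1 call among the 8 fits that left out 1 mouse. Over those fits the differences ran from 0.57 to 0.85 with Cpd2 (highest adjusted p = 0.724) and from 0.66 to 0.93 with Cpd6 (highest adjusted p = 0.3644). In Study 4 Pglyrp3 gave 3.29, 3.47, 3.64 and 3.64 with vehicle against 3.68, 4.10, 3.95 and 3.91 with Cpd6, so the groups lay apart by a narrow gap. The difference was 0.40 (SE 0.16, adjusted p = 0.114), and Cpd18 differed by 0.19 (SE 0.16, adjusted p = 0.788).

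Pglyrp4 gave 6.09, 5.38, 5.98 and 6.00 with vehicle in Study 2, 6.20, 6.16, 6.41 and 6.67 with Cpd2, and 6.29, 6.49, 6.13 and 6.37 with Cpd6. Both treated groups lay just above the vehicle group. The differences of 0.49 (SE 0.18, adjusted p = 0.492 in limma) and 0.46 (SE 0.18, adjusted p = 0.318) were not called. In Study 4 its differences were 0.21 with Cpd6 and 0.11 with Cpd18, also not called. Pglyrp1, a granule protein of neutrophils that epithelia make as well, was not called in any comparison. In Study 2 it gave 7.66, 6.78, 6.46 and 6.33 with vehicle, 7.26, 7.38, 7.26 and 7.31 with Cpd2, and 7.16, 6.97, 7.20 and 6.93 with Cpd6. The vehicle mice spread more widely than both treated groups, with replicate 1 highest. The difference with Cpd2 was 0.49 (SE 0.22, adjusted p = 0.648 in limma), or 0.78 (adjusted p = 0.0204) without that mouse. That was the 1 call among the 8 fits that left out 1 mouse. Over those fits the difference ran from 0.33 to 0.78 (highest adjusted p = 0.9315).

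**Figure D2:**
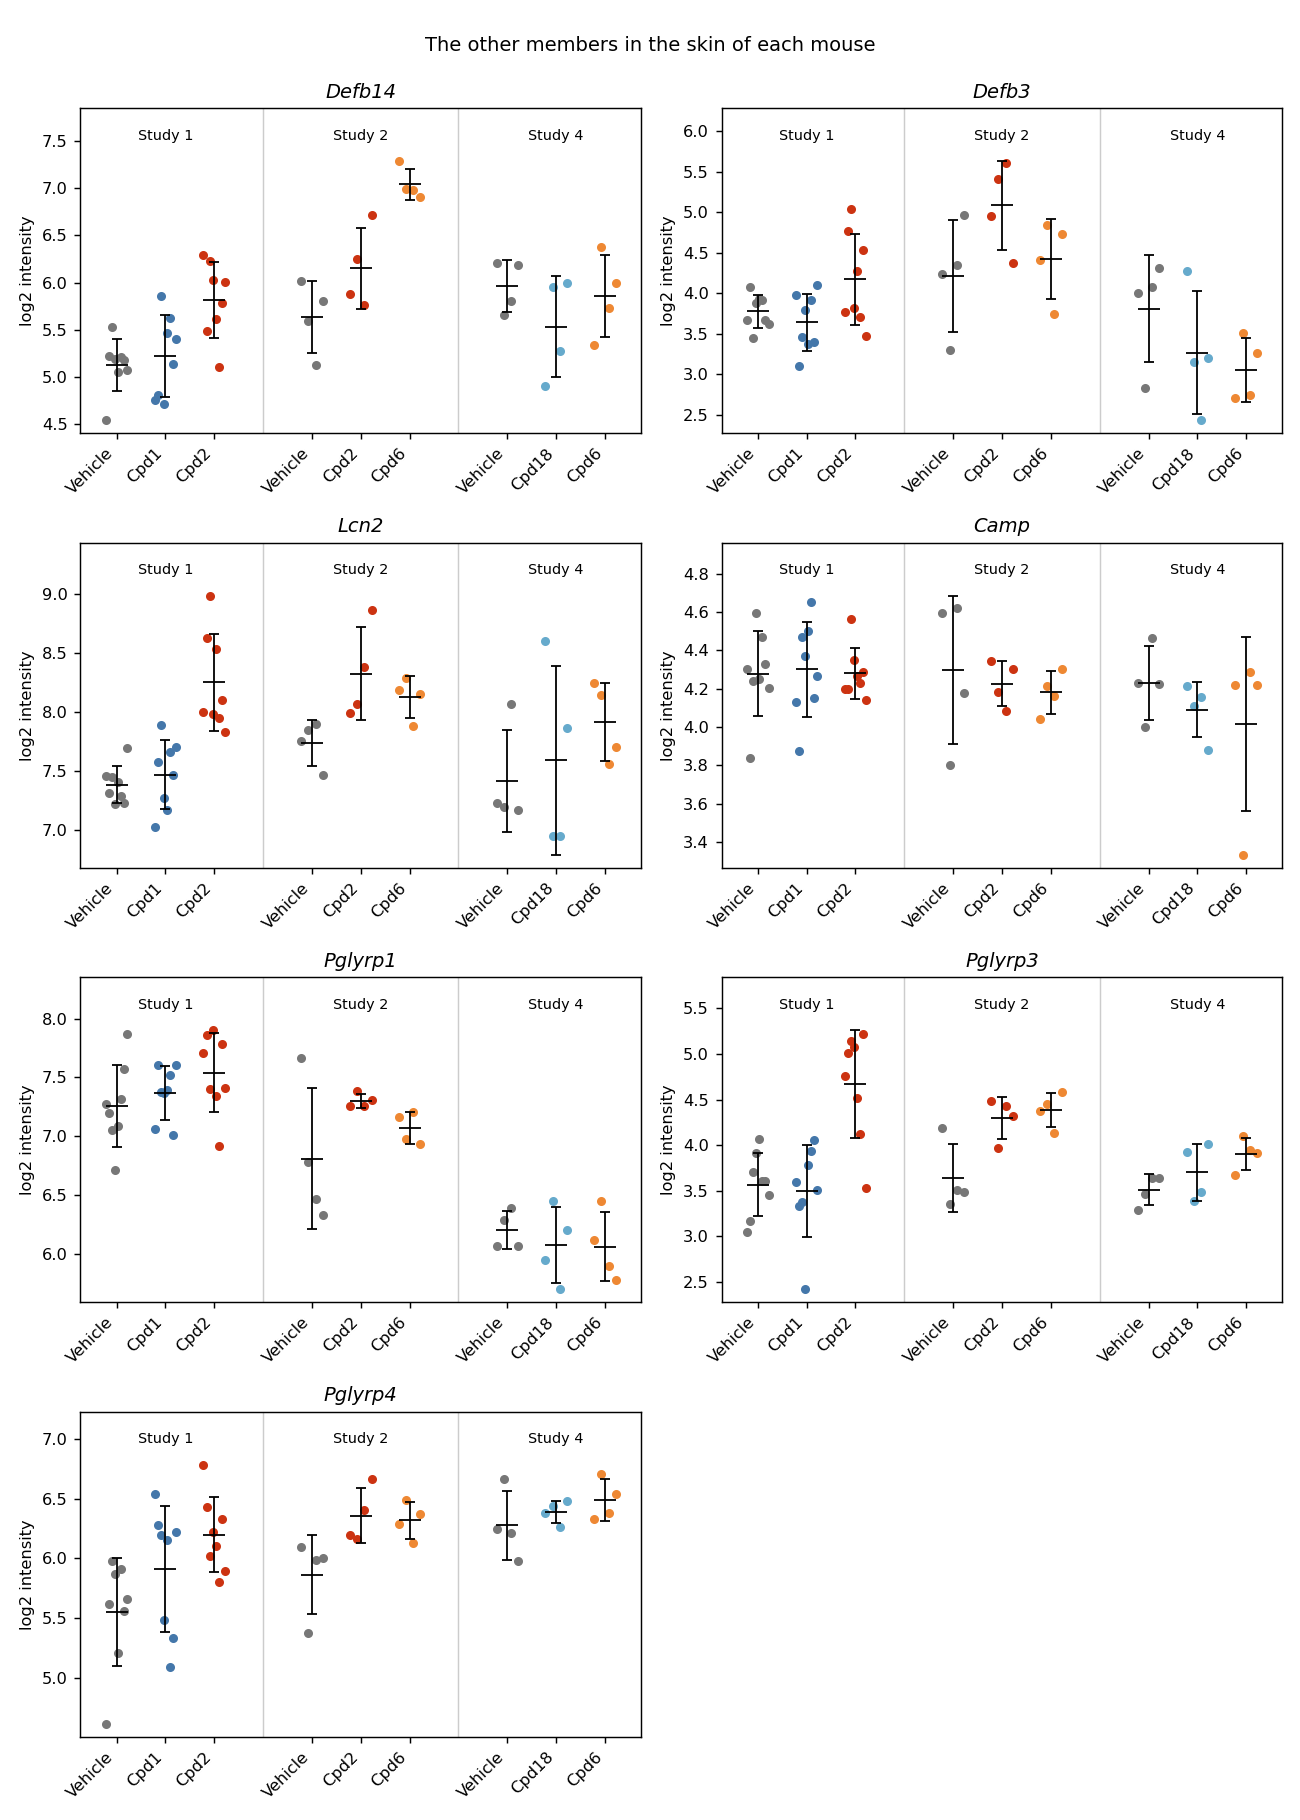
Log2 intensity (vertical axes) of the other 7 members in each mouse, by treatment and study, where each point is 1 mouse and the bars are the mean and SD of a group of 8 (Study 1) or 4 mice. Defb14 stands out with Cpd6 in Study 2, where the 4 mice lie between 6.91 and 7.29, and Pglyrp3 and Lcn2 with Cpd2 in Study 1, while Camp stays level. Pglyrp3 and Camp are dim, with group means under all array medians.

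Counted over the 9 members, 6 were called higher and 0 lower with Cpd2 in Study 1, where 7.09% of all tested probesets were called higher and 6.0% lower (13.1% either way). The groups did not overlap for 3 of them (Defb1, Defb6 and Lcn2), against 1.49% of all probesets. The median log2 difference of the members was 0.64, against 0.04 over all probesets. With Cpd2 in Study 2, 2 members were called higher and 0 lower (0.0417% and 0.0868% of all probesets) and 4 lay wholly above vehicle (1.89%), namely Defb1, Defb6, Lcn2 and Pglyrp4. With Cpd6 in Study 2, 3 were called higher and 0 lower (0.0903% and 0.288%) and 4 lay wholly above vehicle (4.31%), namely Defb1, Defb6, Defb14 and Pglyrp4. The medians of the members were 0.58 and 0.46 there, against 0.02 over all probesets in both comparisons. The Cpd2 and Cpd6 comparisons of Study 2 share the vehicle mice. Defb1 and Defb6, which the study chose on these same mice, are among the called members in each of these comparisons. They are the 2 called with Cpd2 in Study 2. These counts are therefore not independent of that choice.

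With Cpd6 in Study 4, 0 members were called in limma, where 4.56% of all probesets were called higher and 6.17% lower. The share called either way was 10.7%. Before adjustment 2 of 9 members (Defb1 and Pglyrp3) had a p under 0.05 in limma, as did 27.7% of all probesets. The methods' t-test called 0 after adjustment. Pglyrp3 was the 1 member whose groups lay apart (8.82% of all probesets lay apart in that direction). For the skin-negative compounds, 0 members were called with Cpd1 (0.247% of probesets called higher, 0.0799% lower and 0.327% either way) and 0 with Cpd18 (0.0% higher, 0.00347% lower and 0.00347% either way). Neither compound gave a member with an unadjusted p under 0.05 (0 of 9, against 13.2% and 7.96% of all probesets), and the methods' t-test called 0 after adjustment. Their log2 differences ran from -0.16 to 0.36 with Cpd1 and from -0.54 to 0.19 with Cpd18. For Defb1 and Defb6 little difference with Cpd1 was a condition of the study's choice of probesets, so it is not independent evidence.

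**Figure D3:**
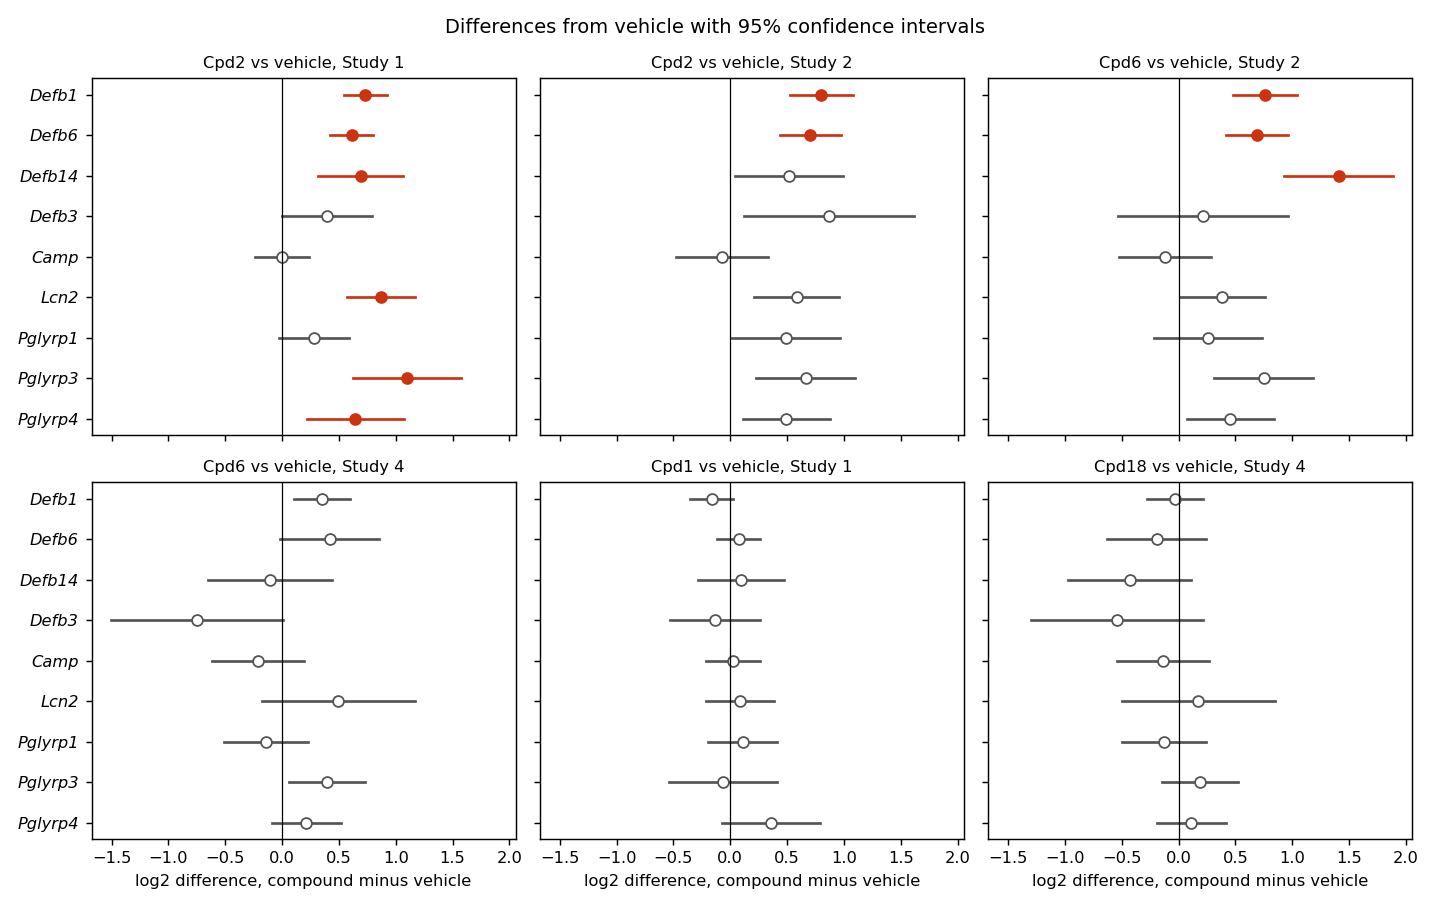
Log2 difference from vehicle (horizontal axes) of the 9 members in each of the 6 comparisons, with 95% confidence intervals, where filled red points were called at an adjusted p under 0.05 in limma and open points were not. The 11 called points all lie above 0, 6 with Cpd2 in Study 1, 2 with Cpd2 in Study 2 and 3 with Cpd6 in Study 2. They include Defb1 and Defb6, which the study chose on the mice of Studies 1 and 2.

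Set against each other within a study, Cpd2 and Cpd6 gave 0 called members in Study 2 (0.0% of all probesets) in limma. Only Defb14 had a p under 0.05 before adjustment (1 of 9, against 8.23% of all probesets). The methods' t-test called 0 after adjustment and 1 at the methods' own threshold. Cpd2 lay wholly above Cpd6 for Pglyrp1 (2.04% of probesets) and wholly below it for Defb14 (2.79%). Cpd6 and Cpd18 gave 0 called members in Study 4 (0.0486% of probesets higher, 0.441% lower and 0.49% either way). Defb1 and Defb6 had a p under 0.05 before adjustment (2 of 9, against 12.5% of all probesets), and the methods' t-test called 0 after adjustment. The Cpd2 effect differed between Studies 1 and 2 for 0 members (0.726% of probesets, 0.313% higher and 0.413% lower), and the Cpd6 effect between Studies 2 and 4 for 0 members (0.0%). Before adjustment 0 and 2 of 9 members (Defb1 and Defb14) had a p under 0.05, against 15.4% and 7.72% of all probesets. The methods' t-test called 0 in both after adjustment. For Defb1 and Defb6 the Cpd2 effects of Studies 1 and 2 differed by -0.07 (95% confidence interval -0.40 to 0.27) and -0.09 (-0.50 to 0.32). Both genes were chosen by the study on those mice, so this likeness is not independent of that choice. Their Cpd6 effects of Studies 2 and 4 differed by 0.41 (0.03 to 0.80, adjusted p = 0.599 in limma) and 0.27 (-0.20 to 0.74, adjusted p = 0.9026).

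Markers of tissue composition are given beside these results. In Study 1 all 20 tested skeletal muscle markers were called lower with Cpd2 (6.0% of all probesets), with averages of 6.01 to 12.11 against 10.32 to 12.36 in vehicle mice. The 4 Cpd2 mice lowest in muscle were the 4 highest in Pglyrp3, with Pglyrp3 at 5.01 to 5.22 against 3.53 to 4.76 in the other 4. For the other members 2 (Defb1, Defb6 and Defb14) or 3 of those 4 mice were among the 4 highest. Without the 3 Cpd2 mice lowest in muscle, 3 members were called higher (2.89% of probesets): Defb1 at 0.71 (adjusted p = 0.000201 in limma), Lcn2 at 0.80 (adjusted p = 0.0022) and Defb6 at 0.58 (adjusted p = 0.0020). Pglyrp3 at 0.82 (adjusted p = 0.0631), Defb14 at 0.57 (adjusted p = 0.136) and Pglyrp4 at 0.65 (adjusted p = 0.157) were then not called. In Study 2 the muscle averages ran from 11.58 to 12.23 with Cpd2, from 11.60 to 11.76 with Cpd6 and from 11.64 to 11.86 with vehicle.

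With Cpd2 in Study 1, 7.09% of all probesets were called higher and 6.0% lower. Of 10 markers of differentiated keratinocytes, which make these peptides, 7 were called higher and 0 lower there, and their averages ran from 9.72 to 10.08 against 9.22 to 9.97 with vehicle. Of 10 T cell markers 8 were called higher, with averages of 7.45 to 8.02 against 6.89 to 7.34. Of 10 dendritic and Langerhans cell markers 6 were called higher and 0 lower, and of 6 basal keratinocyte markers 3 were called higher and 0 lower. Of 7 activated keratinocyte markers 1 was called higher and 1 lower, with a median difference of 0.26, and of 10 macrophage markers 0 were called. Of 11 sebaceous gland markers 4 were called lower and 0 higher, with averages of 7.81 to 8.97 against 8.39 to 9.44. In Study 2 sebaceous averages ran from 8.61 to 8.86 with Cpd2 (1 called lower, 0.0868% of all probesets), 8.31 to 8.69 with Cpd6 (2 called lower, 0.288%) and 8.75 to 9.20 with vehicle. In Study 4 they ran from 8.20 to 8.58 with Cpd6 (4 called lower, 6.17% of all probesets), 8.83 to 9.09 with Cpd18 (0 called) and 8.84 to 8.98 with vehicle. The T cell and differentiated keratinocyte lists held no called gene in Study 2, where keratinocyte averages ran from 9.69 to 10.45 with Cpd2, 9.96 to 10.39 with Cpd6 and 9.66 to 10.04 with vehicle. Activated keratinocyte markers had median differences of -0.18 with Cpd2 and -0.34 with Cpd6 in Study 2, 0 called with either. In Study 4 their medians were -1.03 with Cpd6 (2 called lower, 6.17% of all probesets) and -0.79 with Cpd18 (0 called). Hair follicle markers, which follow the hair cycle, varied widely among the mice. In Study 2 their means were 8.69 ± 2.78 with vehicle, 5.61 ± 1.49 with Cpd2 and 4.90 ± 0.91 with Cpd6 (SD, n = 4). In Study 4 they were 8.83 ± 2.99 with vehicle, 8.23 ± 2.30 with Cpd18 and 4.99 ± 0.96 with Cpd6 (SD, n = 4). The part of these markers in the results for the members was not tested.

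Other beta-defensins were compared as a list of 35 genes, of which 13 passed the filter. With Cpd2 in Study 1, 3 were called higher and 1 lower (7.09% and 6.0% of all probesets). Defb15 rose by 1.13 (SE 0.25, adjusted p = 0.0032 in limma) and Defb5, which lies between Defb6 and Defb3, by 0.92 (SE 0.27, adjusted p = 0.0220). Defb8, the next gene after Defb3, was lower by a log2 difference of -0.65 (SE 0.15, adjusted p = 0.0051), with levels of 10.94 to 11.98 against 11.59 to 12.53 in vehicle mice. With Cpd6 in Study 4 Defb8 was the 1 gene of the list called, at -0.97 (SE 0.17, adjusted p = 0.0038), and its levels of 9.38 to 10.12 lay below the 10.27 to 10.91 of vehicle mice. Of all probesets 6.17% were called lower there. In Study 2 Defb8 differed by 0.04 with Cpd2 (SE 0.16, adjusted p = 0.977) and by -0.21 with Cpd6 (SE 0.16, adjusted p = 0.668). No gene of the list was called with Cpd1, with Cpd18 or with either compound of Study 2. Defb15 nevertheless lay at 0.99 with Cpd6 in Study 2 (SE 0.20, adjusted p = 0.0502 in limma), just over the threshold, and at 0.36 with Cpd2 (adjusted p = 0.769). Defb5 lay there at 1.01 with Cpd2 (SE 0.25, adjusted p = 0.231) and at 0.79 with Cpd6 (SE 0.25, adjusted p = 0.195). Genes of this family are alike in sequence, and how far their probesets share signal was not tested.

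**Figure D4:**
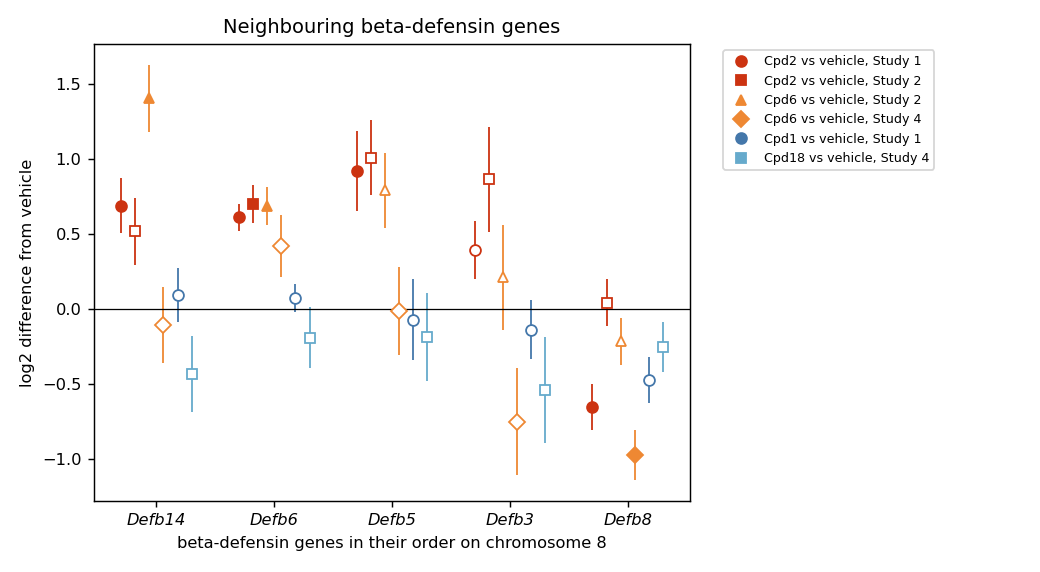
Log2 difference from vehicle (vertical axis) of 5 neighbouring beta-defensin genes in their order on chromosome 8, not to scale and without Defb4 and Defb46, which lay under the filter; points are the 6 comparisons, bars are SE, and filled points were called in limma. Defb6 lies above 0 with Cpd2 and Cpd6 in each study, and Defb8 at the other end lies at -0.65 with Cpd2 in Study 1 and -0.97 with Cpd6 in Study 4.

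Among 27 tested genes of other antimicrobial proteins, 8 were called higher and 1 lower with Cpd2 in Study 1 (7.09% and 6.0% of all probesets). They included Wfdc5, a secreted whey acidic protein, at 1.15 (SE 0.14, adjusted p = 7.255e-06 in limma), Slurp1, a secreted keratinocyte protein, at 0.98 (adjusted p = 0.0016), and the chitinase-like Chi3l1 at 1.13 (adjusted p = 0.0030). With Cpd6 in Study 4, 0 were called higher and 10 lower (4.56% and 6.17% of all probesets). Retnla differed by -1.30 (adjusted p = 1.03e-05), the calprotectin subunit S100a8 by -1.60 (adjusted p = 0.0005503) and Hamp2, a hepcidin, by -3.04 (adjusted p = 0.0018). S100a8 was also the 1 gene of the list called lower with Cpd2 in Study 1, at -0.72 (adjusted p = 0.0477), and Retnla and Hamp2 lay there at -0.45 (adjusted p = 0.0690) and -1.27 (adjusted p = 0.0879). Of the genes named as higher with Cpd2, none was called in Study 4, where Wfdc5 lay at 0.08, Chi3l1 at 0.23 and Slurp1 at -0.53. Hamp2 was the 1 gene of the list called with Cpd6 in Study 2, at -2.99 (SE 0.57, adjusted p = 0.0351), and with Cpd1, at 2.93 (SE 0.49, adjusted p = 0.0051). Retnla was the 1 gene called with Cpd18, at -0.85 (adjusted p = 0.0329). In Study 4, 5 of 10 neutrophil markers and 8 of 10 macrophage markers were called lower with Cpd6 (6.17% of all probesets). The neutrophil list and the list of other antimicrobial proteins share S100a8, S100a9, Ngp, Ltf and Retnlg. Their counts are therefore not independent of each other. The macrophage averages were 7.13 to 7.51 with Cpd6 and 7.15 to 7.76 with Cpd18, against 7.96 to 8.23 with vehicle. Their median difference from vehicle was -0.73 with each compound, although no macrophage marker was called with Cpd18. Neutrophil averages there were 4.38 to 4.63 with Cpd6, 4.62 to 5.15 with Cpd18 and 5.25 to 5.51 with vehicle.

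Of 16 tested microbial sensors, 4 were called higher and 0 lower with Cpd2 in Study 1 (7.09% and 6.0% of all probesets). They were led by Nlrp10 at 0.74 (adjusted p = 2.585e-05 in limma) and the fungal receptors Clec4n at 0.89 (adjusted p = 0.000325) and Clec7a at 0.86 (adjusted p = 0.0031). With Cpd6 in Study 4, 4 were called lower and 0 higher (6.17% and 4.56% of all probesets), with Tlr1 at -1.24 (adjusted p = 0.0072), Clec4n at -0.96 (adjusted p = 0.0085) and Tlr7 at -1.10 (adjusted p = 0.0112). The Cpd2 effect on Nlrp10 differed between Studies 1 and 2 by 0.71 (SE 0.18, adjusted p = 0.0407), since it was 0.03 in Study 2. Of 18 genes of Toll-like receptor and NF-kB signalling, 6 were called higher and 1 lower with Cpd2 in Study 1 (7.09% and 6.0% of all probesets). The feedback inhibitors Tnfaip3 at 0.61 (adjusted p = 0.000136) and Nfkbia at 0.55 (adjusted p = 0.00031) were higher and the adaptor Tirap, at -0.52 (adjusted p = 0.000272), was lower. Tnfaip3 was also called with Cpd1, at 0.46 (adjusted p = 0.0361), and Nfkbia with Cpd6 in Study 4, at 0.33 (adjusted p = 0.0424).

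Of 31 tested cytokines and receptors that act on keratinocytes, 10 were called higher and 0 lower with Cpd2 in Study 1 (7.09% and 6.0% of all probesets). These included Il20rb, a receptor chain of the interleukin-20 family, at 0.77 (adjusted p = 1.514e-05 in limma), the growth factor Ereg at 0.97 (adjusted p = 0.00012) and Il1f5, an antagonist of the interleukin-36 receptor, at 0.78 (adjusted p = 0.000153). With Cpd6 in Study 4, 4 were called lower (6.17% of all probesets), among them Il1f5 at -0.35 (adjusted p = 0.0085), Tslp at -0.78 (adjusted p = 0.0138) and Il1f8 at -0.86 (adjusted p = 0.0335). Of 13 proteases and inhibitors of the kind that process antimicrobial peptides, 8 were called higher and 0 lower with Cpd2 in Study 1 (7.09% and 6.0% of all probesets). Klk5, the kallikrein that cleaves cathelicidin, rose by 0.64 (adjusted p = 3.438e-05), Tmprss4 by 1.00 (adjusted p = 3.44e-05) and Klk7 by 0.52 (adjusted p = 0.000113). Klk6 was the 1 gene of this list called with Cpd6 in Study 4, at 1.11 (SE 0.31, adjusted p = 0.0344), and its differences were 1.33 with Cpd2 (adjusted p = 0.0975) and 1.10 with Cpd6 (adjusted p = 0.0983) in Study 2. In Study 2 no gene of the sensor, signalling, cytokine or protease lists was called with either compound, where 0.129% and 0.379% of all probesets were called either way.

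Across the 48 arrays, each centred on the mean of its study, the members varied together to unequal degrees. The correlation was highest for Defb1 and Defb6 (r = 0.81), followed by Defb1 and Pglyrp3 (r = 0.74), and lowest for Camp and Pglyrp4 (r = -0.13). These values describe arrays that share treatment and tissue composition. Defb1 and Defb6 were both chosen by the study, on mice among these arrays, as changed by the skin-positive compounds. The choice also required little difference with the skin-negative compound. The correlation of Defb1 with Defb6 is therefore not independent of that choice. By the same measure the genes most like Defb1 were Ptgr1 (r = 0.88), Ccl1 (r = 0.85) and Cdh1 (r = 0.83), and those most like Defb6 were Epcam (r = 0.81), Gata6 (r = 0.80) and Ccl1 (r = 0.79). For Defb14 they were Nt5c3 (r = 0.78), Smim5 (r = 0.76) and Lce1l (r = 0.76). For Lcn2 they were Zc3h12a (r = 0.70), Ccl1 (r = 0.69) and Ccl2 (r = 0.68). For Pglyrp3 they were Fam81a (r = 0.79), Ch25h (r = 0.78) and Lipk (r = 0.78), and for Pglyrp4 they were Susd6 (r = 0.76), Lpcat2 (r = 0.74) and Reep3 (r = 0.73). Ccl1 was chosen by the study in the same way as Defb1 and Defb6, so its likeness to them is not independent of that choice either.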

How the data were processed

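Total RNA of 48 skin biopsies was hybridised to a custom Affymetrix array. The authors deposited linear intensities made with RMA, which corrects background, normalizes arrays and summarises probes; its version and the genome build of the array are not given in the sources used here. Groups were taken from the labels, and no pair of arrays held identical values. Intensities were put on the log2 scale. Probesets with a mean over all mice under percentile 25 (2.93) were left out. limma 3.58.1 (R 4.3.3) fitted each study separately by group means, moderating variances along an intensity trend, and p-values of the 28789 probesets were adjusted after Benjamini and Hochberg. Differences between studies were fitted over all 48 arrays. A gene with several probesets was read from the brightest. The plain t-test with pooled variance, called the methods' t-test, stands in for the one-way ANOVA of the methods, whose threshold asks for p under 0.01 and more than a 1.2-fold change without adjustment. Its calls are given after Benjamini-Hochberg adjustment at 0.05 unless that threshold is named.

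Named genes were all members and, from each other list and comparison, at most 3 called genes with the smallest adjusted p. For each called member, the 3 genes with the highest correlation were also named. Klk6 and Defb15 in Study 2 and Defb8 and Defb5 in all comparisons are given because the rule named them in at least 1. The members and lists were chosen with earlier results of these data known. Fits were tested on simulated data. Promoter windows were matched for 6 of 10 members in a RefSeq table (GRCm38.p6), which was otherwise used for gene order only. The number of arrays limits the precision. P-values measure the spread between mice of 1 study.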

Additional observations from a re-analysis of the deposited data

Results flagged for a closer look

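Of 81 sets of values (9 members in 9 groups), 5 held a mouse that stood apart from the rest of its group by Dixon's criterion, which flags about 1 group in 20 by chance. Defb1 in Study 1 vehicle replicate 1 was 10.34, against 10.84 to 11.08 in the other mice. Camp in Study 4 Cpd6 replicate 2 was 3.33, against 4.22 to 4.29. Lcn2 in Study 4 vehicle replicate 3 was 8.07, against 7.17 to 7.23. Pglyrp3 in Study 1 Cpd1 replicate 4 was 2.42, against 3.34 to 4.05. Pglyrp4 in Study 2 vehicle replicate 2 was 5.38, against 5.98 to 6.09.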

How the results depend on the processing

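Of 100 counts of called members under an alternative other than leaving out 1 mouse, 90 were unchanged or within 1.5 times. With Cpd2 in Study 1 the count was 3 without the 3 mice lowest in muscle markers. With Cpd2 in Study 2 it was 1 in 1 fit over all 48 arrays. After Benjamini-Hochberg adjustment of the methods' t-test it was 0 with Cpd2 and 0 with Cpd6 in Study 2, while at the methods' own threshold, without adjustment, it was 3 and 4. Array weights gave 1 for Cpd6 in Study 4 (Defb1, adjusted p = 0.0490 in limma) and 1 for the Cpd6 effect between Studies 2 and 4 (Defb14). The methods' threshold gave 1 for Cpd2 against Cpd6 and 1 for the Cpd6 effect between studies. With the replicate number as a block the count was 0 for Cpd2 and 1 for Cpd6 in Study 2, and Pglyrp4 with Cpd2 in Study 1 was not called (adjusted p = 0.0776). Same-numbered mice had correlations of -0.44 to 0.38, and differently numbered mice of -0.51 to 0.58. The medians of same-numbered and differently numbered mice were -0.04 and 0.01 in Study 1, and -0.03 and 0.01 in Study 2. In Study 4 they were 0.11 and -0.04. Whether the numbers pair mice was not tested. Leaving out 1 mouse gave 5 to 6 members with Cpd2 in Study 1, 0 to 4 with Cpd2 and 1 to 4 with Cpd6 in Study 2, 0 to 1 with Cpd6 in Study 4, 0 to 1 for Cpd6 against Cpd18, and 0 in the other comparisons. The highest counts of Study 2 came without vehicle replicate 1. In Study 2 the Defb6 call was lost in 7 of 8 such fits with each compound, and that of Defb1 in 5 of 8 with Cpd2 and 4 of 8 with Cpd6. The Defb14 calls were lost in none. The 50th percentile filter left Camp, Defb3 and Pglyrp3 untested. Of 90 member differences 72 were never called, and 22 of these changed sign under some setting. No difference that was called under some setting changed sign. Where a count moved, the cause was not tested.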
